A study of Mus musculus with 4 samples.

Results

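The immediate early genes were followed in testis cells of mice at postnatal day 8. The members are *Fos*, *Fosb*, *Jun*, *Junb*, *Jund*, *Egr1*, *Nr4a1*, *Ier2*, *Atf3* and *Dusp1*, 10 of the 30828 genes listed, and each was found by its symbol in both count tables. They had been selected on their UMIs per class in the 2 genotypes, the contrast given here, so the differences between genotypes given here are descriptions and none was tested. The labels give 4 samples, 2 called wild-type and 2 called *Cnot3* KO. The study's methods give the wild-type mice as *Cnot3* flox/flox without a Cre, so both genotypes carry the floxed alleles, and the *Cnot3*-cKO mice as *Cnot3* flox/flox with *Ddx4*-creER. Both received 4-hydroxytamoxifen from postnatal day 1, which activates the creER recombinase, here driven by *Ddx4*, a gene of germ cells. Somatic cells of the *Cnot3*-cKO testis were therefore not the target of the deletion. Testis cell suspensions had been sorted for CD9 and THY1, and each genotype has 1 table that merges both of its samples. The titles of the 2 samples of a genotype differ only in a prefix, NS or NOV, and the study sequenced its libraries on 2 instruments, so they may be 2 runs of 1 library. The comparison is between 1 control library and 1 *Cnot3*-cKO library, so genotype cannot be told apart from library, from animal or from the handling of each suspension, and no p-value is given.

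Immediate early genes are transcribed within minutes of a signal, from promoters that need no new protein, and their short-lived transcripts decay soon after. FOS, FOSB and the JUN proteins pair through leucine zippers to form the AP-1 transcription factor, EGR1 and NR4A1 are other rapidly made transcription factors, and ATF3 is a stress-induced partner of the same bZIP class. IER2 is a small nuclear protein, and DUSP1 is a phosphatase that switches MAP kinases off. CNOT3 is a subunit of the CCR4-NOT complex, which shortens the poly(A) tails of messenger RNAs. Growth factors, stress and the dissociation of tissues into single cells are all known to induce these genes.

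The unit was the unique molecular identifier (UMI), 1 captured RNA molecule, given per 1000000 UMIs of a cell class (CPM). The control library held 181550221 UMIs and the *Cnot3*-cKO library 168770743. Cells were called by the rule given below, and the filters stated by the study then left 5615 and 6034 cells with median depths of 14183 and 13215 UMIs. The study reports fewer cells of each genotype. Of the called barcodes, 18 occurred in both libraries. Classes came from clusters formed without the 10 genes and other rapidly induced genes. Germ-like cells numbered 241 in control and 72 in *Cnot3*-cKO. The other classes held, in the same order, 1400 and 1724 Sertoli-like cells, 1316 and 1617 peritubular myoid-like cells, 2357 and 2276 stroma-like cells, 49 and 61 macrophage-like cells, and 33 and 37 endothelial-like cells. Markers of the class were detected in all 6 classes of both libraries. Myoid-like cells also carried stromal markers at 19468 and 19545 CPM, against 4192 and 3595 CPM of myoid markers. Classes were also set from the share of each list's marker genes detected in a single cell. Then only 106 and 95 cells were myoid-like, and 3595 and 3833 were stroma-like. *Cnot3* itself stood at 69.4 CPM (63.4 to 75.8) in control and 38.4 CPM (29.2 to 49.6) in *Cnot3*-cKO germ-like cells, a log2 ratio of -0.85. In the other 5 classes its log2 ratio lay between -0.13 and 0.06. Parentheses after a value hold its 95% interval, which covers counting error and nothing else.

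The sequences behind 2 known features of these genes are shown first. Many immediate early promoters hold the cyclic AMP response element, a site of the CREB and ATF factors whose core is TGACG. RefSeq promoter windows (GRCm38.p6, from 250 bases before to 50 bases after the start) were on hand for 8 members, all but *Egr1* and *Ier2*. The core or its complement CGTCA occurred in 6 of the 8, against 20.8% of all 32851 windows. The *Jun* window had none, and neither had the *Jund* window, which ends before the start of the gene model used below. The stretches below run 5′ to 3′ along the gene, with the core in capitals.
Fos, chr12:85473814-85473841, plus strand: ttccgcccagTGACGtaggaagtccatc
Fosb, chr7:19310088-19310115, minus strand: gagttgcgggTGACGcaagcgcgggggc
Junb, chr8:84978837-84978864, minus strand: ttcctgacagTGACGcgagccgcctcct
Nr4a1, chr15:101266796-101266823, plus strand: cctctccatgCGTCAcggagcgcttaag
Atf3, chr1:191183334-191183361, minus strand: tggaagctattaatagcattaCGTCAgc
Dusp1, chr17:26508595-26508622, minus strand: gggcgggTGACGTCAccgcccggtcacg

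The *Fos* stretch covers bases 76 to 49 before the start, and the *Fosb* stretch, of a gene on another chromosome, bases 70 to 43. In *Dusp1* the core and its complement overlap to give the full 8-letter site, TGACGTCA, which 1.79% of all windows hold. Further copies of the core or its complement lay elsewhere in the windows of *Fos* (2 in all), *Nr4a1* (4 in all) and *Dusp1* (3 in all). The TATA box letters TATAAA were found in 2 of the 8 windows and in 8.32% of all. The CArG box of serum response factor was found in 0 of the 8 and in 1.63% of all. The AP-1 site, TGACTCA or TGAGTCA, was found in 0 of the 8 and in 5.20% of all. Sequence farther upstream than these windows was not searched, and neither were the promoters of *Egr1* and *Ier2*. A count of 0 therefore does not show that these promoters lack the site. A match is a description of letters and was not tested as a site.

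The other feature is the AU-rich element, by which proteins such as ZFP36 bring the CCR4-NOT complex to a transcript. Its heptamer TATTTAT was searched on the sense strand of the 3′ untranslated region of 1 GENCODE M21 transcript per gene (GRCm38). It occurred in 6 of the 10 members, against 26.2% of 20586 genes. *Dusp1* had 3 copies in 690 bases and *Fos* 2 copies in 815 bases, while *Fosb*, *Jun*, *Jund* and *Atf3* had 1 each. *Junb*, *Egr1*, *Nr4a1* and *Ier2* had none, although *Junb*, *Egr1* and *Nr4a1* held the shorter ATTTA, which 63.1% of genes have. Examples are printed for the gene with the most copies, for *Fos* and for *Jun*, with the heptamer in capitals.
Dusp1, chr17:26506159-26506186, minus strand: agctggtcctTATTTATttaacaccccc
Fos, chr12:85477104-85477131, plus strand: gttttcaattTATTTATtaagatggatt
Jun, chr4:95049079-95049106, minus strand: tgcttgtgcaTATTTATaatagcgttcg

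Across the 6 classes, the 10 genes together went from 488 CPM in control to 730 CPM in *Cnot3*-cKO in germ-like cells, from 3396 to 3865 CPM in Sertoli-like cells, from 2212 to 5103 CPM in myoid-like cells and from 1770 to 3666 CPM in stroma-like cells. Macrophage-like cells went from 1918 to 5979 CPM and endothelial-like cells from 1838 to 2279 CPM. The summed level was thus higher in the *Cnot3*-cKO library in all 6 classes. The log2 ratio was 1.64 (1.56 to 1.72) in macrophage-like, 1.21 (1.19 to 1.22) in myoid-like and 1.05 (1.04 to 1.06) in stroma-like cells. It was 0.58 (0.48 to 0.68) in germ-like, 0.31 (0.18 to 0.44) in endothelial-like and 0.19 (0.17 to 0.20) in Sertoli-like cells. In control the Sertoli-like cells had the highest summed level and germ-like cells the lowest. In *Cnot3*-cKO the macrophage-like and myoid-like cells stood above the Sertoli-like cells, and germ-like cells remained lowest.

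Counted over genes with at least 100 UMIs in both libraries together, 9 of 9 members were at least 1.5-fold higher in *Cnot3*-cKO myoid-like cells, where 1.79% of all tested genes were. In stroma-like cells 8 of 9 were higher, against 0.845% of genes, and in macrophage-like cells 8 of 8, against 7.71%. In germ-like cells 6 of 8 were higher, against 5.91%, and 1 was lower, against 4.47%. Subtracting free RNA took *Jun* (log2 ratio 0.56), *Egr1* (0.45) and *Ier2* (0.57) below the line there and left 3 higher. In Sertoli-like cells 2 of 10 were higher, against 1.03%, and in endothelial-like cells 2 of 8, against 4.42%. No member that reached 100 UMIs was 1.5-fold lower in these other 5 classes. Of all genes tested, 0.741% were lower in Sertoli-like, 0.961% in stroma-like, 1.08% in myoid-like, 3.85% in endothelial-like and 4.48% in macrophage-like cells. The median log2 ratio of the members was 1.12 in stroma-like cells, 1.03 in myoid-like, 1.63 in macrophage-like, 0.92 in germ-like, 0.34 in endothelial-like and 0.20 in Sertoli-like cells, while that of all genes tested lay between -0.02 and 0.05 in the 6 classes. The genes were picked with this contrast in view, so nothing is read from these counts and medians. Members that missed the minimum were *Fosb* and *Atf3* in germ-like cells, *Atf3* in myoid-like and stroma-like cells, and *Nr4a1* and *Atf3* in macrophage-like and endothelial-like cells.

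**Figure D1:**
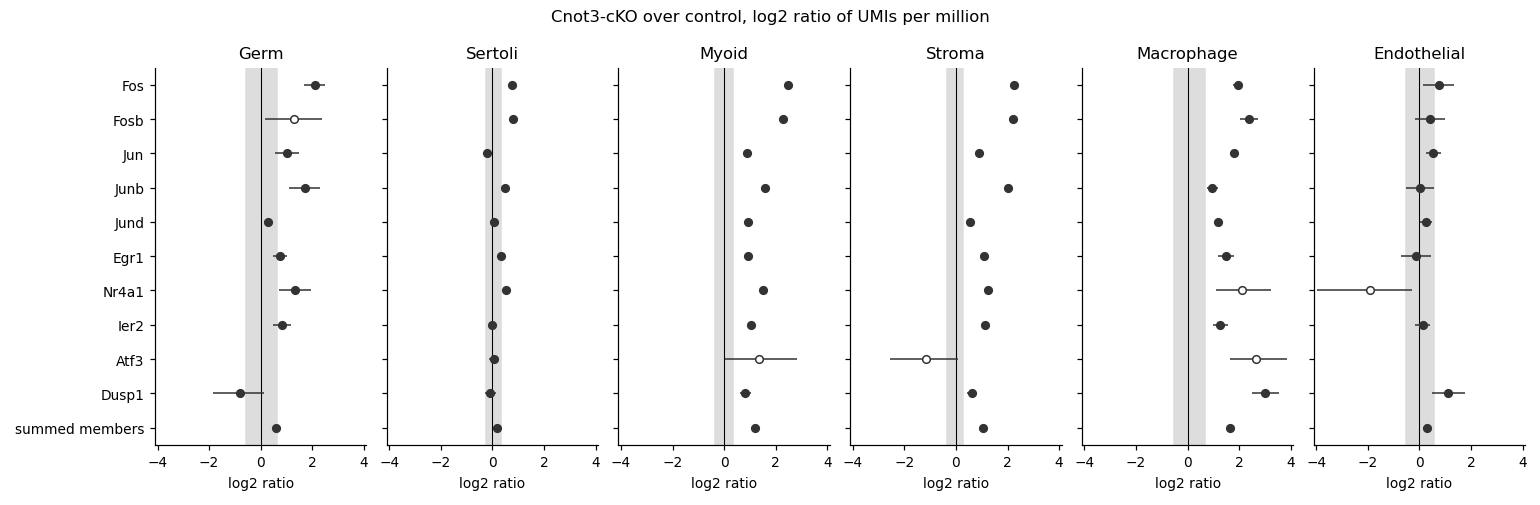
Log2 ratio of CPM, *Cnot3*-cKO over control, for each gene and their sum in the 6 cell classes. Points are ratios with 95% intervals for counting error, open points have fewer than 100 UMIs over both libraries, genes at 0 in a library have no point, and grey bands run from the 5th to the 95th percentile of all genes with at least 100 UMIs. In myoid-like and stroma-like cells *Fos* and *Fosb* lie farthest to the right, at 2.48 and 2.29 and at 2.27 and 2.21.

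*Fos*, the inducible AP-1 subunit, is a 4-exon gene at chr12:85473890-85477273 (plus strand). In control it stood at 402 CPM in macrophage-like, 221 in Sertoli-like, 121 in myoid-like, 89.8 in stroma-like, 84.2 in endothelial-like and 15.8 in germ-like cells. The stroma-like and endothelial-like levels did not differ beyond their counting error, at 86.6 to 92.96 and 60.2 to 115. In *Cnot3*-cKO it stood at 1541 CPM in macrophage-like, 677 in myoid-like, 433 in stroma-like, 379 in Sertoli-like, 141 in endothelial-like and 67.5 in germ-like cells. *Fos* was higher in *Cnot3*-cKO in every class, and myoid-like and stroma-like cells passed Sertoli-like cells in the order. The log2 ratio was 2.48 (2.42 to 2.54) in myoid-like, 2.27 (2.21 to 2.33) in stroma-like, 1.94 (1.77 to 2.11) in macrophage-like and 0.78 (0.73 to 0.83) in Sertoli-like cells. Among all genes tested in stroma-like cells, *Fos* had the 3rd highest ratio of 12076, and in myoid-like cells the 14th of 11217.

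*Fosb*, its close relative at chr7:19302696-19310051 (minus strand), had control levels of 152 CPM in Sertoli-like, 101 in endothelial-like, 88.1 in macrophage-like, 59.7 in myoid-like, 55.2 in stroma-like and 3.25 in germ-like cells. Its *Cnot3*-cKO levels were 457 CPM in macrophage-like, 292 in myoid-like, 267 in Sertoli-like, 256 in stroma-like, 135 in endothelial-like and 7.94 in germ-like cells. Like *Fos* it was higher in *Cnot3*-cKO in every class, with its largest ratio, 2.37 (2.03 to 2.74), in macrophage-like cells. The ratio was 2.29 (2.20 to 2.38) in myoid-like and 2.21 (2.14 to 2.28) in stroma-like cells. The ratio in Sertoli-like cells was 0.81 (0.75 to 0.88). The germ-like value rested on 23 and 12 UMIs, and free RNA at the upper shares given below would supply 82.6% and 139% of it. The endothelial-like ratio of 0.41 had an interval that included 0 (-0.16 to 0.99).

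**Figure D2:**
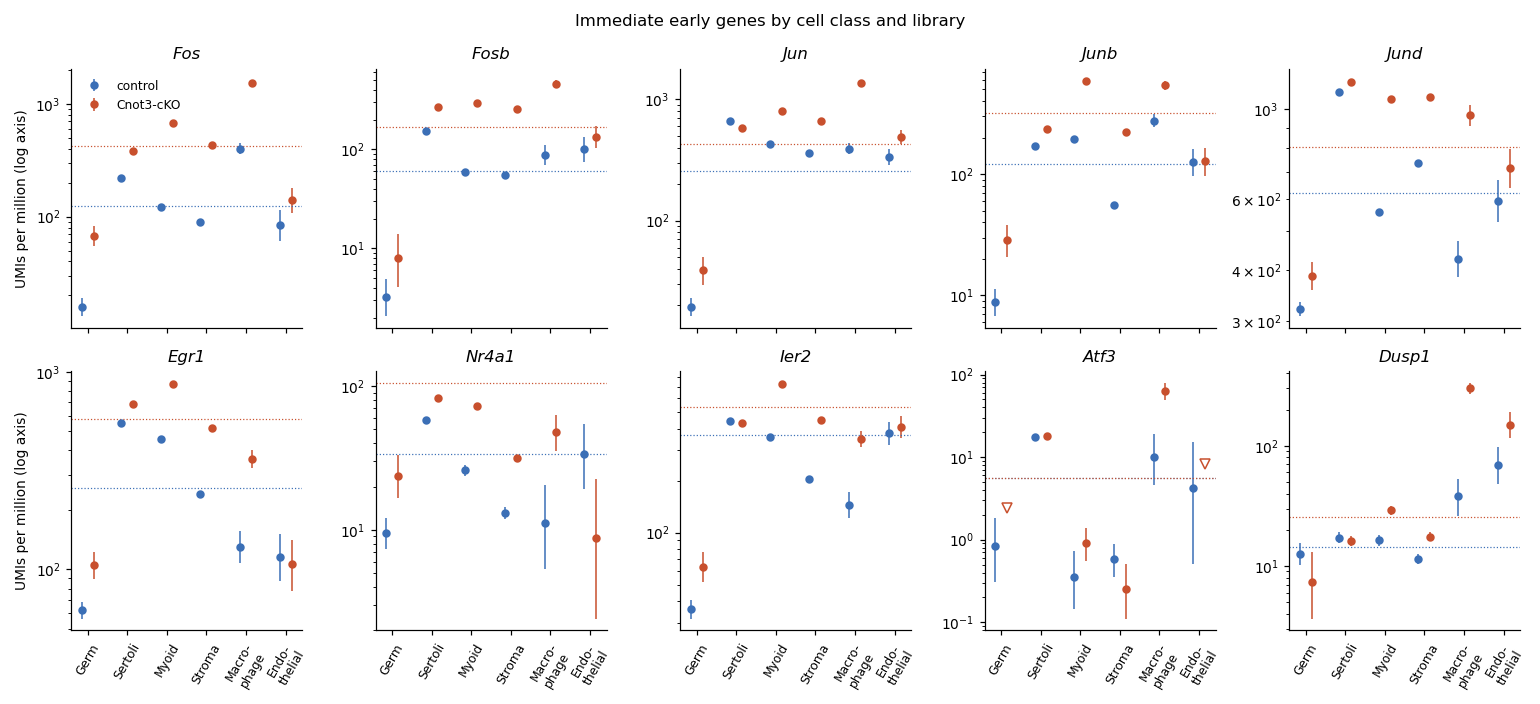
CPM (log axis) of each gene in the 6 cell classes of the control (blue) and *Cnot3*-cKO (orange) library. Bars are exact 95% intervals for counting error, dotted lines are the level in empty barcodes of the same library, and open triangles are upper limits of a class with 0 UMIs. Macrophage-like *Fos* at 1541 is the highest *Cnot3*-cKO point of that gene, and the germ-like points of all 10 genes lie under the dotted line of their own library.

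The 3 JUN genes, each with 1 exon in the transcript used, differed from each other. *Jun*, the main partner of FOS (chr4:95049034-95052222, minus strand), stood at 664 CPM in control and 579 CPM in *Cnot3*-cKO Sertoli-like cells, a log2 ratio of -0.20 (-0.23 to -0.16). That was the only class in which *Jun* was lower in *Cnot3*-cKO. It went from 425 to 792 CPM in myoid-like cells, from 363 to 668 CPM in stroma-like cells and from 390 to 1358 CPM in macrophage-like cells, with log2 ratios of 0.90, 0.88 and 1.80. Endothelial-like cells had 335 and 488 CPM, and germ-like cells 19.3 and 39.1 CPM.

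*Junb* (chr8:84974484-84978718, minus strand) behaved more like the FOS genes in the interstitial classes. It went from 195 to 583 CPM in myoid-like cells (log2 ratio 1.58; 1.53 to 1.63) and from 55.4 to 224 CPM in stroma-like cells (2.02; 1.94 to 2.09), where its ratio was the 6th highest of all genes tested. Sertoli-like cells had 171 and 238 CPM (0.48), macrophage-like cells 277 and 538 CPM (0.96), and germ-like cells 8.75 and 28.5 CPM. In endothelial-like cells the 126 and 128 CPM did not differ beyond counting error (0.02; -0.53 to 0.56).

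*Jund* (chr8:70698949-70700616, plus strand) is the member known for steady rather than induced transcription. It stood at 1104 and 1164 CPM in Sertoli-like cells, 735 and 1073 CPM in stroma-like cells, 557 and 1061 CPM in myoid-like cells, 594 and 715 CPM in endothelial-like cells and 426 and 965 CPM in macrophage-like cells. Germ-like cells had 321 (308 to 334) and 387 (357 to 420) CPM. In control the highest class stood 3.44-fold over the lowest, against 25.4-fold for *Fos* and 46.9-fold for *Fosb*. Its log2 ratios were 1.18 in macrophage-like, 0.93 in myoid-like and 0.55 in stroma-like cells, and 0.08 to 0.27 in the other 3 classes. In stroma-like cells this was the smallest ratio of the 9 members with at least 100 UMIs.

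*Egr1*, a zinc-finger factor (2 exons, chr18:34859823-34864984, plus strand), stood at 552 and 690 CPM in Sertoli-like cells, 456 and 869 CPM in myoid-like cells and 241 and 517 CPM in stroma-like cells. The ratios were 0.32 (0.29 to 0.36), 0.93 (0.89 to 0.97) and 1.10 (1.06 to 1.14). Macrophage-like cells had 131 and 362 CPM (1.47; 1.17 to 1.78), germ-like cells 61.9 and 105 CPM, and endothelial-like cells 116 and 106 CPM, within counting error of each other. The germ-like values rested on 439 and 159 UMIs, and their log2 ratio was 0.77 (0.49 to 1.03).

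*Nr4a1*, an orphan nuclear receptor (chr15:101254269-101274795, plus strand), was sparser. It went from 58.1 to 83.3 CPM in Sertoli-like cells, from 26.0 to 72.9 CPM in myoid-like cells and from 13.1 to 31.4 CPM in stroma-like cells, with log2 ratios of 0.52, 1.49 and 1.26. Macrophage-like cells had 11.2 and 47.8 CPM on 10 and 51 UMIs, a log2 ratio of 2.10 (1.11 to 3.24). Endothelial-like cells had 33.7 and 8.82 CPM on 16 and 4 UMIs, so this gene was lower there in *Cnot3*-cKO (-1.93; -3.97 to -0.30). Both classes missed the minimum of 100 UMIs. Germ-like cells had 9.45 and 23.8 CPM.

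*Ier2* (chr8:84661331-84662852, minus strand, 1 exon) did not differ in Sertoli-like cells beyond counting error, at 440 and 430 CPM (log2 ratio -0.03; -0.07 to 0.01). It went from 355 to 726 CPM in myoid-like cells (1.03) and from 205 to 446 CPM in stroma-like cells (1.12). Macrophage-like cells had 145 and 348 CPM (1.26), endothelial-like cells 375 and 408 CPM, and germ-like cells 36.0 and 63.6 CPM.

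*Atf3* (chr1:191170296-191218039, minus strand) was detected mainly in 2 classes. Sertoli-like cells held 17.3 (15.6 to 19.2) and 17.9 (16.3 to 19.7) CPM, which did not differ beyond counting error. Macrophage-like cells held 10.0 CPM on 9 UMIs in control and 62.8 CPM on 67 UMIs in *Cnot3*-cKO, and the log2 ratio was 2.65 (1.64 to 3.84). Myoid-like and stroma-like cells stayed under 1 CPM in both libraries. In *Cnot3*-cKO it had 0 UMIs in germ-like and endothelial-like cells, and a count of 0 allows up to 3 UMIs.

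*Dusp1*, the phosphatase of the set (4 exons, chr17:26505590-26562128, minus strand), went from 37.9 to 301 CPM in macrophage-like cells, a log2 ratio of 2.99 (2.48 to 3.54) and the 8th highest of the 2971 genes tested there. Endothelial-like cells had 69.5 and 150 CPM (1.11; 0.49 to 1.76) and were the highest class for this gene in control. Myoid-like cells had 16.4 and 28.9 CPM (0.82), stroma-like cells 11.5 and 17.5 CPM (0.61), and Sertoli-like cells 17.2 and 16.2 CPM (-0.08; -0.29 to 0.13). The myoid-like difference was not seen in the 106 and 95 cells that were myoid-like by the marker genes detected in single cells (0.0169). Thinning every cell to 7500 UMIs left the stroma-like ratio at 0.37, under the 1.5-fold line. Germ-like cells had 12.6 CPM on 89 UMIs and 7.28 CPM on 11 UMIs. Their log2 ratio of -0.79 is on the lower side of the 1.5-fold line, but its interval included 0 (-1.84 to 0.12).

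Germ-like cells, the target of the deletion, were looked at more closely because free RNA from other cells can enter any droplet. Barcodes with at most 100 UMIs, which hold no cell, gave the free RNA of each library. In these empty barcodes *Fos* stood at 125 CPM in control and 422 CPM in *Cnot3*-cKO, *Junb* at 122 and 321 CPM, *Jun* at 258 and 424 CPM, and the 10 genes together at 1865 and 3394 CPM. Free RNA thus held more of these transcripts in the *Cnot3*-cKO library. Germ-like levels of all 10 genes lay below those of the empty barcodes of the same library. From Sertoli and stromal markers, free RNA made up at most 4.44% of the germ-like UMIs in control and 6.52% in *Cnot3*-cKO. At those shares free RNA would supply 35.1% and 40.8% of germ-like *Fos*, 59.1% and 70.8% of *Jun*, 62.0% and 73.5% of *Junb*, and 8.61% and 13.5% of *Jund*. For *Fosb* it would supply 82.6% in control and 139%, more than was counted, in *Cnot3*-cKO.

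The stated filters keep few germ cells, so a wider set was also used, with a mitochondrial limit of 20% and without the upper limits on UMIs and genes. In this set 612 control and 363 *Cnot3*-cKO germ-like cells had at most 10% mitochondrial UMIs. The limits on UMIs and genes had left out 371 and 290 of these. In all, the set held 1334 germ-like cells in control and 560 in *Cnot3*-cKO. *Fos* stood there at 14.6 (13.6 to 15.6) and 47.7 (45.1 to 50.4) CPM, *Junb* at 9.52 and 31.4 CPM, and *Jun* at 35.7 and 59.3 CPM. *Egr1*, at 78.7 and 107 CPM, had a log2 ratio of 0.45 in this set, under the 1.5-fold line. *Dusp1* was level, at 11.99 and 12.5 CPM (log2 ratio 0.06; -0.14 to 0.25), so its lower value above was not seen in this larger set.

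Each set of germ-like cells was then split at its library's median into cells with less and cells with more RNA of 25 somatic markers, per UMI. In the wider set the cells with more held *Fos* at 22.8 CPM in control and 77.2 CPM in *Cnot3*-cKO. A mixture of free RNA with the same amount of somatic marker would make up 21.8% and 16.4% of their UMIs and hold 27.3 and 69.3 CPM. These shares, set by all 25 markers, exceed the limits of 4.44% and 6.52% given above for all germ-like cells under the stated filters. The mixture is therefore a reference for comparison and not an estimate of free RNA. In the cells with less, *Fos* was 6.47 (5.57 to 7.47) and 17.5 (15.3 to 19.9) CPM, and the same mixture would hold 2.14 and 8.10 CPM. In this set *Fos* was thus near the level of that mixture in the cells with more somatic marker RNA and above it in those with less, in both libraries. In those with less, the log2 ratio was 1.44 (1.15 to 1.72) for *Fos*, 1.62 (1.26 to 1.99) for *Junb* and 0.80 (0.55 to 1.04) for *Jun*. *Egr1* had 0.27 (0.14 to 0.40), *Jund* 0.08 (0.03 to 0.13) and *Dusp1* 0.04 (-0.24 to 0.32). Under the stated filters 121 and 36 cells had less somatic marker RNA, and their *Fos* levels of 10.99 and 14.2 CPM did not differ beyond counting error (0.37; -0.70 to 1.32). There the cells with more had 21.1 and 136 CPM. The mixture, at 12.8% and 14.1% of their UMIs, would hold 16.0 and 59.4 CPM, so the *Cnot3*-cKO value stood well above it. The part of free RNA in these ratios was not tested.

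**Figure D3:**
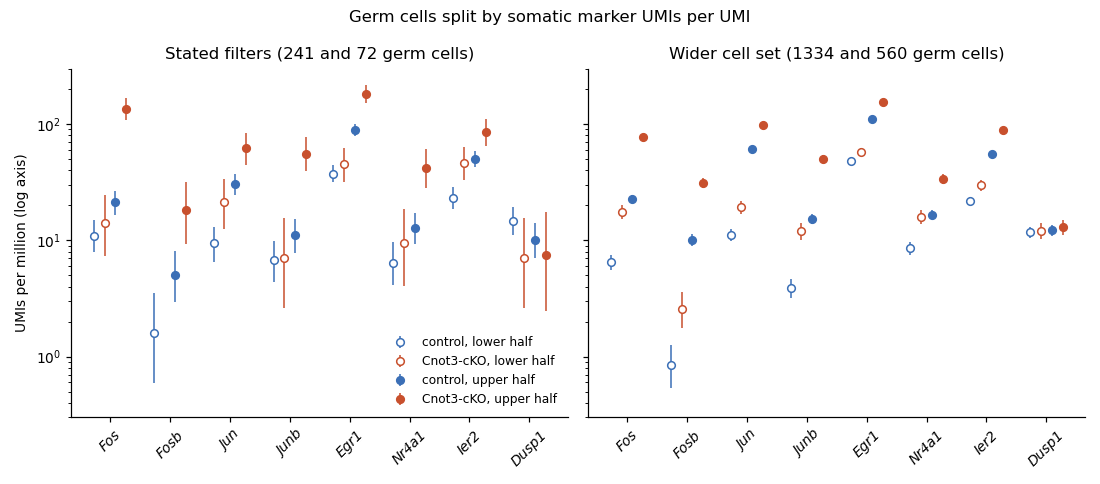
CPM (log axis) of 8 genes in germ-like cells with less (open) and more (filled) somatic marker RNA, in the control (blue) and *Cnot3*-cKO (orange) library, under the stated filters (left) and in the wider set (right). Bars are exact 95% intervals for counting error, and a value of 0 UMIs has no point. In the wider set *Fos* stands at 6.47 (open) and 22.8 (filled) in control and at 17.5 and 77.2 in *Cnot3*-cKO, while *Dusp1* stays between 11.7 and 12.9.

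Macrophage-like cells had the highest summed level in *Cnot3*-cKO, but the cluster also held other cells. UMIs of 5 T cell genes were found in 10 of its 49 control and 8 of its 61 *Cnot3*-cKO cells. With only the 29 and 51 cells that had at least 100 UMIs of the 8 macrophage markers, a limit set after the data were seen, no T cell UMI remained. The summed level was then 1710 (1598 to 1827) and 6062 (5906 to 6221) CPM, a log2 ratio of 1.83 (1.72 to 1.93). *Fos* went from 461 to 1647 CPM, *Fosb* from 43.2 to 442 CPM, *Egr1* from 37.3 to 381 CPM and *Dusp1* from 47.1 to 314 CPM. *Fosb* and *Egr1* thereby had ratios of 3.36 (2.74 to 4.05) and 3.35 (2.69 to 4.1003), larger than in the whole cluster. The other members with a ratio lay between 1.201 for *Junb* and 3.59 for *Atf3*, the latter on 3 and 67 UMIs. *Nr4a1* had 0 UMIs in the control cells and 33 in the *Cnot3*-cKO cells. Free RNA was at most 23.0% of control and 9.40% of *Cnot3*-cKO macrophage-like UMIs, and would supply 22.3% and 5.33% of the summed members. Subtracting it left the summed ratio at 1.70.

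Endothelial-like cells had few UMIs, 873 and 1033 of the members in all. Their Sertoli markers stood at 2206 CPM in control and 364 CPM in *Cnot3*-cKO, and their stromal markers at 1040 and 2590 CPM. The part of these in the ratio of 0.31 was not tested.

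Within the classes the difference was not carried by 1 cluster. Among stroma-like cells the summed level went from 1758 to 2926 CPM in the cluster led by *Clec3b* and *Dlk1* (1069 and 961 cells), from 1855 to 4159 CPM in that led by *Vcam1* and *Gsta2* (997 and 1132 cells) and from 1579 to 3735 CPM in a cycling cluster (291 and 183 cells). The log2 ratios were 0.74, 1.16 and 1.24. Among myoid-like cells, the main cluster, led by *Acta2* (1147 and 1419 cells), went from 2268 to 5277 CPM, a cluster with replication genes such as *Mcm3* (149 and 101 cells) from 1907 to 4188 CPM, and a cluster led by *Rgs5* (20 and 9 cells) from 1962 to 4497 CPM. Another myoid-like cluster, led by *Tagln*, had 0 control and 88 *Cnot3*-cKO cells at 3486 CPM. Without it the summed ratio of myoid-like cells was 1.23. The 4 Sertoli-like clusters had smaller ratios, from 0.11 in cycling cells to 0.35 in a cluster with *Hist1h2bc* and *Spp1* in the lead.

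**Figure D4:**
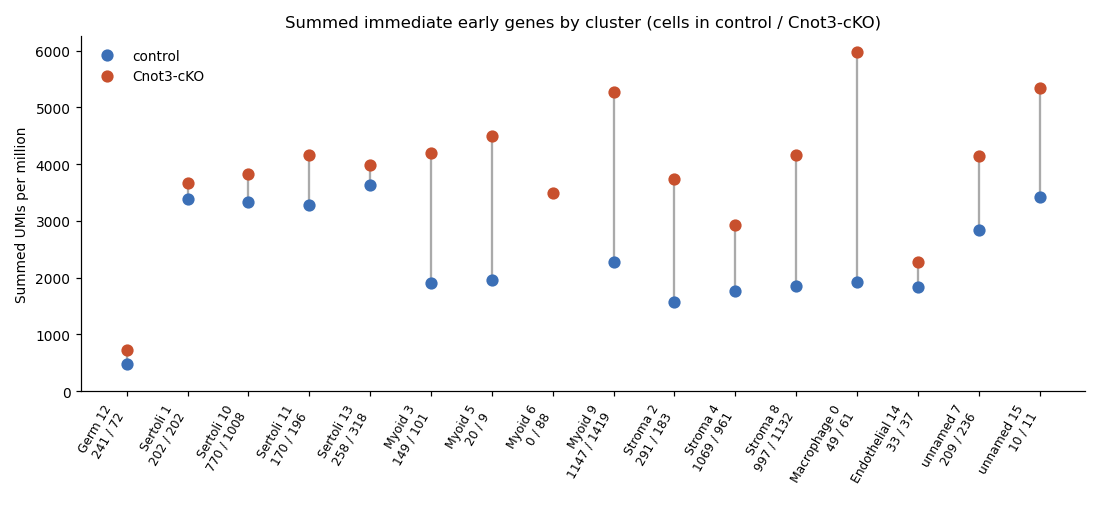
Summed CPM of the 10 genes in each cluster, control (blue) and *Cnot3*-cKO (orange), joined by a line. Labels give the class, the cluster number and the cells of control and *Cnot3*-cKO, and 1 myoid-like cluster has *Cnot3*-cKO cells only. Lines are long in the myoid-like, stroma-like and macrophage-like clusters, and short in Sertoli-like clusters, which start at 3272 to 3637 in control.

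Per cell, the 9 genes other than *Jund* were used, since *Jund* made up much of the germ-like sum. The median cell held 13.7 UMIs of these per 10000 in control and 35.6 in *Cnot3*-cKO myoid-like cells, and 6.89 and 17.3 in stroma-like cells. In macrophage-like cells the lower quartile of *Cnot3*-cKO, 26.99, lay above the upper quartile of control, 21.6. In Sertoli-like cells the quartiles overlapped widely, with medians of 20.6 and 24.6. The difference was thus one of the bulk of cells in the interstitial and macrophage-like classes. The 5th percentile was 0.6805 and 1.14 in stroma-like, 0.935 and 3.44 in myoid-like, and 1.24 and 14.99 in macrophage-like cells. After thinning every cell to 7500 UMIs, *Fos* was detected in 34.0% (31.5 to 36.7) of control and 69.9% (67.6 to 72.2) of *Cnot3*-cKO myoid-like cells, against 12.4% and 30.6% of germ-like cells. Unthinned, the shares were 45.4% and 75.9% in myoid-like cells and 28.2% and 44.4% in germ-like cells, at median germ-like depths of 31950 and 20284 UMIs. The thinned summed count had a variance over mean of 8.44 and 17.3 in myoid-like cells and of 8.27 and 18.4 in stroma-like cells, where 1 would be counting noise alone.

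**Figure D5:**
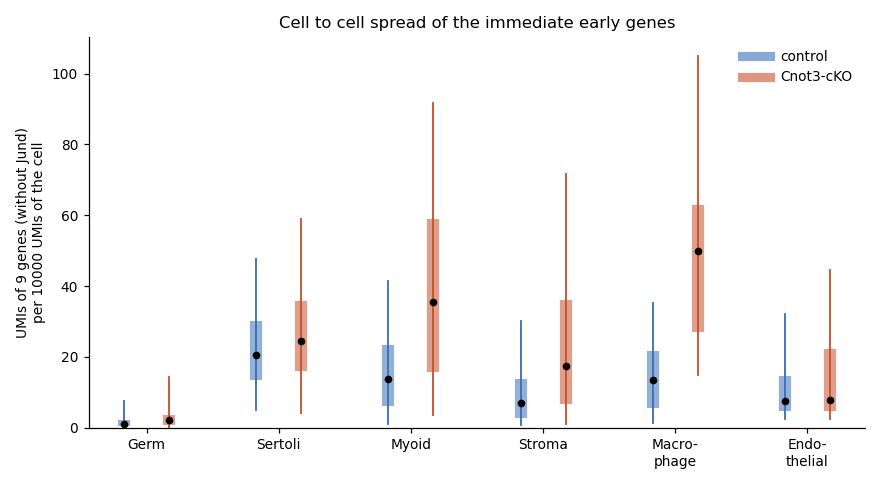
UMIs of 9 immediate early genes (without *Jund*) per 10000 UMIs of each cell, by class and library. Dots are medians over cells, thick bars run from the lower to the upper quartile and thin lines from the 5th to the 95th percentile. The *Cnot3*-cKO macrophage-like bar starts at 26.99, above the top of the control bar at 21.6.

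Several members varied together from cell to cell within a library. The genes were chosen on levels by class and genotype, but from these same counts, so the correlations are descriptions too. Spearman correlations over the cells of 1 class and library, on thinned counts, were taken in the 6 sets formed by the Sertoli-like, myoid-like and stroma-like cells of both libraries. *Jun* and *Jund* had the highest median, 0.45 (lowest 0.32, highest 0.54), followed by *Fos* and *Fosb* with 0.42 (0.32 to 0.60), *Egr1* and *Ier2* with 0.40 (0.33 to 0.47), and *Fos* and *Egr1* with 0.39 (0.32 to 0.56). Pairs with *Dusp1* had medians of at most 0.11. *Atf3* had too few UMIs in myoid-like and stroma-like cells for its pairs to be read there. In Sertoli-like cells it went with *Jund* (0.29 in control and 0.30 in *Cnot3*-cKO) and with *Jun* (0.24 in both), while its correlations with the other members lay between -0.07 and 0.09. These cells share depth, library and free RNA, and each of these classes pools several clusters, so the correlations describe the libraries only.

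The summed members were set beside depth and the mitochondrial share. Over cells, the correlation with UMIs per cell lay between -0.20 and 0.20 in the 12 sets of class and library. With the mitochondrial share the correlation over cells was -0.30 in control and -0.20 in *Cnot3*-cKO myoid-like cells, and -0.30 and -0.22 in stroma-like cells. When stroma-like cells were ordered by mitochondrial share and cut into 3 equal bins, the summed level was 2192 CPM in the lowest and 1313 CPM in the highest bin in control, and 4247 and 2916 CPM in *Cnot3*-cKO. Median mitochondrial shares of the 2 libraries were 5.11% and 5.14% in this class. Each *Cnot3*-cKO bin of this class was thus above every control bin. In control Sertoli-like cells the bin with the highest mitochondrial share had more, 3622 CPM against 3172 CPM in the lowest.

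Other genes of the response were counted from lists. The shares of all genes past 1.5-fold in each class, given above, are the background of these counts. Of 16 further rapidly induced transcription factors, 3 of 12 tested were 1.5-fold higher in *Cnot3*-cKO myoid-like cells and 1 lower. These were *Klf4* (16.6 to 44.4 CPM, log2 ratio 1.42), *Nr4a2* (8.41 to 20.4 CPM, 1.27) and *Egr2* (3.31 to 5.02 CPM, 0.60), and *Csrnp1* was the lower one (4.89 to 2.99 CPM, -0.71). In stroma-like cells 0 of 10 passed in either direction. In macrophage-like cells 3 of 3 were higher, *Klf6* with 1.48, *Klf4* with 0.92 and *Klf2* with 0.79. *Klf2*, a factor of endothelium and of resting leukocytes, was also higher in Sertoli-like cells (7.75 to 18.6 CPM, 1.26) and in endothelial-like cells (507 to 1218 CPM, 1.26). *Nr4a2* was higher in Sertoli-like cells too (0.75), which made 2 of 10 there, against 1 of 3 in endothelial-like and 0 of 3 in germ-like cells.

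Of 15 other rapidly induced genes, *Btg2*, a regulator of proliferation that binds the CCR4-NOT complex, was higher in myoid-like cells (420 to 979 CPM, 1.22) and in stroma-like cells (91.1 to 244 CPM, 1.42). It was joined by *Gadd45b* in myoid-like cells (1.08), and *Rhob* was higher in macrophage-like cells (1.03). In all, 2 of 12 passed in myoid-like, 1 of 13 in stroma-like and 1 of 4 in macrophage-like cells, and none of these 3 classes had a lower one. *Plk2* was lower in Sertoli-like cells (-0.59, 1 of 13) and *Gadd45g* in germ-like cells (-1.03, 1 of 6), with none higher, and 0 of 5 passed in endothelial-like cells.

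Among 12 feedback regulators, *Zfp36*, which binds AU-rich elements, was higher in stroma-like cells (14.8 to 67.0 CPM, 2.18), myoid-like cells (23.2 to 84.6 CPM, 1.87) and macrophage-like cells (218 to 628 CPM, 1.53). *Socs3*, an inhibitor of cytokine receptors, was higher in myoid-like cells (17.1 to 69.5 CPM, 2.03), in stroma-like cells (0.96) and, at low level, in Sertoli-like cells (1.996 to 3.93 CPM, 0.98). *Sik1* was higher in myoid-like (0.74), Sertoli-like (0.71) and germ-like cells (0.66), *Dusp2* in germ-like cells (0.84), *Zfp36l1* and *Dusp6* in macrophage-like cells (0.68 and 0.82) and *Nfkbia* in endothelial-like cells (0.91). The counts were 3 of 10 in myoid-like, 2 of 9 in stroma-like, 3 of 5 in macrophage-like, 2 of 10 in Sertoli-like, 2 of 6 in germ-like and 1 of 3 in endothelial-like cells, with 0 lower in all 6.

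The kinases and factors that act upstream, such as *Srf*, *Elk1* and *Creb1*, had 0 of 14 genes past 1.5-fold in either direction in myoid-like and stroma-like cells, and 0 in each of the other 4 classes. The list of other bZIP partners likewise had 0 in every class where any was tested. Heat shock genes had 0 past the line in 5 classes, with summed levels of 4248 and 4194 CPM in stroma-like cells. Of all genes tested, 0.845% were higher and 0.961% lower in stroma-like cells, and 1.79% and 1.08% in myoid-like cells. Counts of 0 in lists this short are near such shares, so nothing is read from them. In germ-like cells 2 of 9 were higher, *Hspb1* (11.2 to 25.2 CPM, 1.17) and *Hsph1* (0.64). The cell cycle list had 3 of 8 lower in stroma-like cells (*Ccnb1* -0.74, *Ube2c* -0.67, *Birc5* -0.59) and 4 of 5 lower in macrophage-like cells (*Ube2c* -2.96, *Top2a* -1.19, *Mki67* -1.16, *Birc5* -1.14). In germ-like cells 2 of 8 were higher (*Ccnb1* 0.94, *Aurkb* 0.67), in endothelial-like cells 1 of 1 (*Cdk1* 1.58), and 0 passed in Sertoli-like and myoid-like cells. The lists were chosen with earlier results of these data known.

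Finally, genes whose level followed the summed members from cell to cell were ranked by their lowest Pearson correlation over the 6 sets above, on log-normalised values, among 9882 genes with at least 1000 UMIs. *Btg2* came first, with correlations of 0.32 to 0.67, then *Rhob* (0.26 to 0.46), *Cyr61* (0.16 to 0.44) and *Zfp36* (0.15 to 0.42). *Ddx5*, an RNA helicase, followed with 0.11 to 0.24. Further down were *Srsf5*, *Zfp36l1*, *Coq10b*, *Klf2*, *Ppp1r15a* and *Socs3*, whose lowest values lay between 0.07 and 0.09. Of the genes named here, 7 were on the lists of rapidly induced genes or feedback regulators. The share of such genes among the 9882 was not counted, and the lists were chosen with earlier results known. Nothing is read from this count.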

How the data were processed

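Testis cells of 4 labelled samples, 2 per genotype and possibly 2 sequencing runs of 1 library each, had been profiled by 10x Genomics 3′ single-cell RNA sequencing. The deposited files hold raw UMI counts per gene and barcode, which the authors made with Cell Ranger 3.0.1 on mm10 (per the labels and the study's methods), merging both samples of a genotype. Reads of different runs or animals cannot be separated there. A barcode counted as a cell when 10 times its UMIs reached the 99th percentile of the 3000 largest barcodes, and cells were kept below 10% mitochondrial UMIs and within 2 SD of the mean UMIs and genes. They were clustered with scanpy 1.11.5 (2500 variable genes, 30 principal components, 15 neighbours, Leiden resolution 0.5) without 65 rapidly induced genes, and clusters were named from marker lists. Scrublet marked 499 control and 454 *Cnot3*-cKO barcodes as doublets, which were kept and left out in an alternative.

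UMIs were summed per class and library and given per 1000000. Levels have exact Poisson 95% intervals, ratios exact conditional binomial intervals, and shares of cells Clopper-Pearson intervals. All are for counting error only and were computed with scipy 1.17.1. The ratio intervals were checked on simulated Poisson counts. These lack the spread between cells seen here, so the check covers the computation only. With 1 library per genotype no test between genotypes was made. The line for a difference was set at 1.5-fold, for genes that reached 100 UMIs in both libraries together. Named genes were all members, list genes past that line, and the 12 genes most like the summed members, of which 1 is not reported here. Members and lists were chosen with earlier results of these data known. Gene identifiers matched GENCODE M21 for 99.8% of genes without the version and 93.3% with it. Alternatives covered filters, doublets, free RNA, scaling, clustering, cell calling and thinning, and 3 were chosen after seeing the data.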

Additional observations from a re-analysis of the deposited data

Results flagged for a closer look

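Among members with at least 100 UMIs, *Dusp1* was singled out because its log2 ratios past 1.5-fold, *Cnot3*-cKO over control, pointed in opposite directions between cell classes. They were 2.99 in macrophage-like, 1.11 in endothelial-like, 0.82 in myoid-like and 0.61 in stroma-like cells, and -0.79 in germ-like cells. The difference between classes was not tested, and the germ-like value rested on 89 and 11 UMIs and was 0.06 in the wider set of germ-like cells.

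The members also gave signal in barcodes that the comparisons of classes did not use. In empty barcodes they summed to 3394 CPM in *Cnot3*-cKO and 1865 CPM in control. In cells left without a class, 247 in *Cnot3*-cKO and 219 in control, they summed to 4181 and 2855 CPM, a log2 ratio of 0.55, with *Fos* at 493 and 194 CPM. Most of these, 236 and 209 cells, formed 1 cluster that carried 9 stromal and 9 Sertoli markers at a median of 24721 UMIs, so it may hold mixed cells.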

How the results depend on the processing

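No paired analysis was possible because each genotype has 1 merged table, in which its samples cannot be separated; leaving out a sample was not possible for the same reason. Of 75 alternative values of the summed log2 ratio, 74 kept their direction. In germ-like cells the ratio of 0.58 became 0.40 in the wider set, 0.37 at a mitochondrial limit of 5% (6 and 11 cells) and 0.39 without doublets. It became 0.37 after subtracting free RNA and 0.36 with classes set from marker genes detected. It was 0.69 after thinning and 0.30 in the cells with less somatic marker RNA. In Sertoli-like cells 0.19 became -0.36 at the 5% limit (8 and 24 cells), 0.20 as a mean over cells and 0.15 with median-ratio scaling. It became 0.25 from marker genes detected and 0.20 after thinning. In myoid-like cells 1.21 became 1.23 in the wider set, 1.26 at resolution 1.0 and 1.17 from marker genes detected (106 and 95 cells). It became 1.19 with 6000 expected cells and 1.23 without the cluster of *Cnot3*-cKO cells only. In stroma-like cells 1.05 became 1.02 in the wider set, 1.005 at the 5% limit, 1.01 as a mean over cells and 1.07 with median-ratio scaling. It became 0.996 at resolution 1.0, 1.14 from marker genes detected (3595 and 3833 cells) and 1.02 after thinning. In macrophage-like cells 1.64 became 1.78 in the wider set, 1.73 at the 5% limit and 1.83 with at least 100 macrophage marker UMIs. In endothelial-like cells 0.31 became 1.01 at the 5% limit, 0.54 without doublets, 0.71 from marker genes detected and 0.49 after thinning. With at least 20 UMIs the shares of genes 1.5-fold higher and lower were 11.8% and 8.59% in germ-like, 3.60% and 2.40% in Sertoli-like, 4.56% and 3.42% in myoid-like, 2.86% and 3.11% in stroma-like, 12.5% and 11% in macrophage-like and 12% and 11.2% in endothelial-like cells. Of 718 values of single members 20 turned direction, 17 of them of members under the 1.5-fold line. The others were *Junb* (1.70 to -0.0216) and *Ier2* (0.82 to -0.0216) in germ-like cells at the 5% limit, and *Dusp1* in germ-like cells in the wider set (-0.79 to 0.0602). Of 455 alternative values of single members past 1.5-fold, 430 stayed past it, and 18 of the 25 that did not were in germ-like cells. There *Egr1* was lost in 5 alternatives, and *Ier2* without doublets (0.56), after subtraction (0.57) and after thinning (0.50). In the cells with less somatic marker RNA *Fos* was 0.37, *Junb* 0.08, *Egr1* 0.26 and *Nr4a1* 0.55, while *Jun* (1.18) and *Ier2* (0.98) stayed past the line. *Fos* in Sertoli-like cells was 0.29 at the 5% limit. The 5% limit gave no value for *Fosb* and *Jun* in germ-like and for *Atf3* and *Dusp1* in Sertoli-like cells, nor did subtraction for *Fosb* in germ-like cells. Apart from the construction of each alternative, the cause was not tested. The germ-like, macrophage-like and endothelial-like values have the fewest cells and UMIs.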
